A study of Mus musculus with 12 samples.

Results

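The 10 genes described here encode the chains of sarcomeric myosin that tell adult fast, adult slow and developing skeletal muscle fibres apart. They were taken by symbol: the fast heavy chains Myh4, Myh1 and Myh2, the fast light chains Mylpf and Myl1, the slow heavy chain Myh7 with the slow light chains Myl2 and Myl3, and the developmental heavy chains Myh8 and Myh3. All 10 were measured, of 18194 genes on the arrays, through 15 probe sets that name 1 of them alone. Total RNA of mice was measured on 12 arrays that fall into 6 groups of 2, lettered a and b. In the diet and genotype experiment, mice labelled Smad3-/-, from a stock that mixes C57BL/6 with NIH Black Swiss, had a high fat diet (55% fat) or a regular diet, and wild-type (WT) C57BL/6 mice were fed likewise. Smad3 is a messenger between the TGF-beta receptor and the nucleus, and the labels name no tissue to which its loss is restricted. In the antibody experiment, C57J/B6 mice, all obese from the high fat diet, were injected in the abdomen with anti-TGF-beta (clone 1D11) or with control IgG (clone 13C4), at 3 injections a week over 8 weeks. The series concerns obesity and diabetes when this pathway is blocked, and the comparisons below ask how the myosin chains stood with and without Smad3, on each diet, and with and without the antibody.

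A muscle myosin molecule pairs heavy chains, which hold the motor that pulls on actin, with essential and regulatory light chains that stiffen and tune it. Fibres are typed by their heavy chain: Myh4 marks the fastest, glycolytic IIb fibres, Myh1 the IIx fibres, Myh2 the fast oxidative IIa fibres and Myh7 the slow fibres, while Myh3 and Myh8 are used in the embryo, around birth and in regenerating muscle. Myh7, Myl2 and Myl3 are also made in the heart.

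The fast and developmental heavy chain genes are neighbours on mouse chromosome 11, in the order Myh3, Myh2, Myh1, Myh4 and Myh8 with no other protein-coding gene between them, and Myh7 lies apart on chromosome 14. The 250 bases before the start site are shown for the 4 neighbours that share stretches of sequence, and for Myh7 as the slow chain with none of them, because the arrays separated Myh8 from its neighbours. Capitals mark a shared run of 14 bases (ttctaattatatcc) and, farther from the start, one of 15 bases (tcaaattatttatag). Sequences are RefSeq's for GRCm38.p6, 5' to 3' on the strand of the gene. The windows are chr11:67237562-67237811 (plus strand) for Myh4, chr11:67199852-67200101 (plus) for Myh1, chr11:67170777-67171026 (plus) for Myh2, chr11:67276874-67277123 (plus) for Myh8 and chr14:54994550-54994799 (minus) for Myh7.
Myh4: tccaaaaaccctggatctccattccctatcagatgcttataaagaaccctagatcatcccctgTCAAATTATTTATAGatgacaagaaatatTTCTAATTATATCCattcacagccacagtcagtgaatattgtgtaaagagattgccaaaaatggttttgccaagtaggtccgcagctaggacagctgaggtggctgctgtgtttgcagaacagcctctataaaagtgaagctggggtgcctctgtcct
Myh1: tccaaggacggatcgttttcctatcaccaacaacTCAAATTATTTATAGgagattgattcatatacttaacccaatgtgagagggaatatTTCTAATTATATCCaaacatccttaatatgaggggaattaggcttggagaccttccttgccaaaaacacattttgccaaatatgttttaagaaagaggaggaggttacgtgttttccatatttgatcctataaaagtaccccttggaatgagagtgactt
Myh2: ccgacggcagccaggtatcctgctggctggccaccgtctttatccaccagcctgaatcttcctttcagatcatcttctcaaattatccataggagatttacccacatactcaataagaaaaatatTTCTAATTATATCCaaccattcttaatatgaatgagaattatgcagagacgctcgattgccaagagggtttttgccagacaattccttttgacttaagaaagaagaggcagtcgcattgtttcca
Myh8: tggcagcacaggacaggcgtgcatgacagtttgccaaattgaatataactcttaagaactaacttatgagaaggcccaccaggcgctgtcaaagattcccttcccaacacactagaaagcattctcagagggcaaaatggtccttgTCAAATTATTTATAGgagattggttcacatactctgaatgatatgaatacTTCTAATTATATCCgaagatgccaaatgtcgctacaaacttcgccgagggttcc
Myh7: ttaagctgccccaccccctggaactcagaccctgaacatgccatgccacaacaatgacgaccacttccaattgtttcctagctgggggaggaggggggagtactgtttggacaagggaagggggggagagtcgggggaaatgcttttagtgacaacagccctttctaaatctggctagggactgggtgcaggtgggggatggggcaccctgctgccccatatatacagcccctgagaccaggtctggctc
Of 32851 promoter windows of this length, 4 held the 14-base run (0.0122%), those of Myh4, Myh1, Myh2 and Myh8. It began 158, 160, 125 and 54 bases before the start of these genes, in that order. In Myh4, Myh1 and Myh2 it lay within an identical run of 20 bases (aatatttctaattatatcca), which 3 windows held (0.00913%). The 15-base run was in the windows of Myh4, Myh1 and Myh8, 187, 216 and 104 bases before the start, and in no other window. Known muscle motifs were also searched on both strands of the 12 windows of the 10 genes (Myh7 and Myl2 have 2 start sites each). A site for MEF2, a muscle transcription factor, was in 3 of the 12 windows (Myh4, Myh1 and Myh8, each inside the 15-base run and overlapping a TATAAA match), against 2.92% of all windows. A CArG box, the site of serum response factor, was in 2 windows (1.47% of all), and the MCAT element CATTCC was in 5 (12.6%). TATAAA was in 6 (12.4%) and the E-box CANNTG in 10 (66.2%). A match is a stretch of letters, not evidence of binding.

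The labels name no tissue. Adipoq, the fat-cell hormone adiponectin, averaged 13.07 to 14.15 log2 units in the 6 groups, above the array medians of 6.03 to 6.39. Values are log2 RMA values, so 1 unit is a doubling of signal, and a probe set's value is compared only with itself. Arrays of a group correlated at r = 0.992 or more. Medians and SDs over probe sets differed between the experiments (SD 1.64 to 1.74 and 2.15 to 2.17), so levels are not compared across them. The labels do not say that arrays a and b were separate animals. P-values therefore set a difference against the scatter of arrays within groups, which can be technical. That scatter was pooled over the 6 groups and moderated across genes. Smad3's brightest probe set read 9.14 and 9.03 on the Smad3-/- arrays and 8.88 and 8.95 on the WT arrays on high fat diet, and 9.10 and 9.17 against 8.86 and 8.94 on regular diet. Whether these probes read the deleted stretch of Smad3 is unknown here, and they are therefore no check of the label, and Smad3-/- below means arrays so labelled. Genotype and strain cannot be told apart. "Called" below means an adjusted p under 0.05 over all 18194 genes in limma's moderated test.

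On the high fat diet, all 3 fast heavy chains, both fast light chains and all 3 slow chains were higher in Smad3-/- than in WT arrays, and the developmental heavy chains were not called. These 8 of 10 chains compare with 4.74% of all genes called higher, and their median log2 difference over the 10 was 3.76, against -0.01 over all genes. Myh4, the IIb heavy chain, read 9.92 and 10.10 on the Smad3-/- arrays and 3.64 and 3.67 on the WT arrays. This was a log2 difference of 6.36 ± 0.14 (SE), or 81.9-fold by signal (limma adjusted p = 4.07e-23), while the other probe set of Myh4 gave -0.04 and was not called, as described below. Except for Myl1 and Myl3, the adult chains read under the 40th percentile of mean signal (5.83) on the WT and IgG arrays, where a value may be background. Folds here and below are therefore ratios of signal, set in part by each probe set's own background, and not ratios of RNA. The arrays were of whole samples, so fewer or more muscle cells and less or more myosin RNA per cell cannot be told apart, here or below.

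The IIx heavy chain Myh1 read 9.12 and 9.18 on Smad3-/- arrays and 4.96 and 4.68 on WT arrays, 20.1-fold higher (log2 4.33 ± 0.15, limma adjusted p = 1.06e-18). Myh2, the IIa heavy chain, read 8.74 and 8.99 against 5.71 and 5.64 in WT, 9.11-fold higher (3.19 ± 0.14, adjusted p = 1.02e-15). No array of a group overlapped with the other group for these 3 genes, and Smad3-/- arrays lay at least 3 units above WT arrays. Mylpf, the fast regulatory light chain, read 9.21 and 9.32 on Smad3-/- arrays and 4.76 and 4.97 on WT arrays (21.1-fold, 4.40 ± 0.17, adjusted p = 1.81e-17). Myl1, which gives the fast essential light chains, read 10.32 and 10.48 against 7.44 and 8.21 in WT (5.97-fold, 2.58 ± 0.15, adjusted p = 3.49e-13). The WT arrays differed from each other more for Myl1 than for any other chain, by less than the distance to the Smad3-/- arrays.

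The slow heavy chain Myh7 read 9.86 and 10.02 on Smad3-/- arrays and 5.13 and 5.17 on WT arrays on high fat diet, 27.7-fold higher (4.79 ± 0.14, adjusted p = 2.74e-20). Myl2, the slow regulatory light chain, read 10.00 and 10.42 against 4.94 and 5.25 in WT, 34.5-fold higher (5.11 ± 0.15, adjusted p = 4.48e-20). The groups did not overlap for either. By brightest probe sets, Myl3, the slow essential light chain, had the smallest called difference: 8.40 and 8.60 on Smad3-/- arrays against 7.41 and 7.52 on WT arrays (2.04-fold, 1.03 ± 0.12, adjusted p = 5.68e-07). Its other probe sets gave 0.95 and 2.75, as described below. The perinatal heavy chain Myh8 read 4.16 and 4.09 against 3.92 and 3.84 in WT (0.24 ± 0.14, adjusted p = 0.345). The embryonic heavy chain Myh3 read 3.89 and 3.86 against 4.16 and 3.92 (-0.17 ± 0.15, adjusted p = 0.647). Over all 12 arrays Myh3 and Myh8 stayed between 3.48 and 4.27, below that same percentile.

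**Figure D1:**
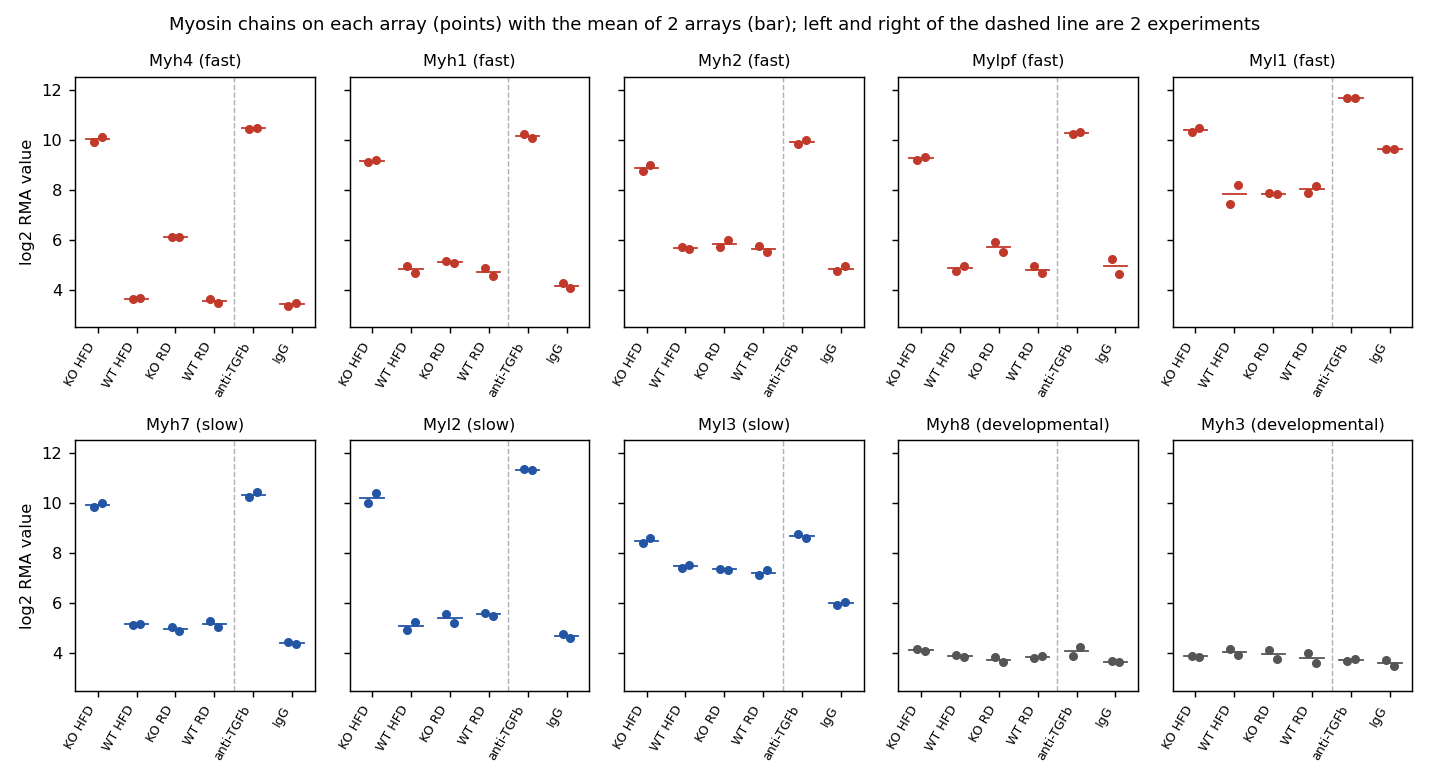
Log2 RMA value of each myosin chain (vertical axes) on each array (points), with the mean of 2 arrays (bar), for the 6 groups; KO stands for arrays labelled Smad3-/-, HFD and RD for high fat and regular diet, and the dashed line separates the experiments. Fast and slow chains stand high in KO HFD and anti-TGFb, Myh4 also has a middle level in KO RD (6.12 on both arrays), and Myh8 and Myh3 stay between 3.48 and 4.27.

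On the regular diet, the Smad3-/- arrays were higher than WT arrays in 3 of the 10 chains, Myh4, Mylpf and Myh1, all of them fast, and lower in 0. Over all genes 8.4% were called higher, and the members' median was 0.14 against 0.04 over all genes. Myh4 read 6.12 and 6.12 on Smad3-/- arrays and 3.65 and 3.50 on WT arrays, 5.85-fold higher (2.55 ± 0.14, adjusted p = 1.63e-14). Its other probe set, 1458368_at, gave 0.05 ± 0.14 and was not called. Mylpf read 5.92 and 5.50 against 4.94 and 4.67 in WT (1.88-fold, 0.91 ± 0.17, adjusted p = 0.000119). The groups did not overlap for Mylpf or for the brightest probe set of Myh4. Myh1 read 5.16 and 5.09 against 4.88 and 4.56 in WT (1.33-fold, 0.41 ± 0.15, adjusted p = 0.0431), a call that was lost without WT array b (adjusted p = 0.384) or without either Smad3-/- array (0.161 without a, 0.105 without b). Of the remaining fast chains, Myh2 differed by 0.22 ± 0.14 (adjusted p = 0.3) and Myl1 by -0.18 ± 0.15 (0.454).

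No slow chain was called on the regular diet. Myh7 read 5.03 and 4.89 on Smad3-/- arrays and 5.29 and 5.04 on WT arrays (-0.21 ± 0.14, adjusted p = 0.317, 95% interval -0.49 to 0.08). Myl2 differed by -0.16 ± 0.15, Myl3 by 0.13 ± 0.12, Myh3 by 0.15 ± 0.15 and Myh8 by -0.11 ± 0.14. Genes of other tissues differed between these groups too. All 8 smooth muscle markers were lower in Smad3-/- on this diet, with summed signals of 4227 to 4528, against 29670 to 31490 in WT. Among them was Myh11, the smooth muscle heavy chain, at 7.34 against 11.38 in WT. The 3' minus 5' difference of the Gapdh control probe sets, a sign of RNA quality, was 0.28 and 0.41 on these Smad3-/- arrays and 0.12 and 0.14 on the WT arrays. That of the Actb control probe sets was 0.96 and 1.12 against 0.80 and 0.77 in WT. Of 7 adipocyte markers 0 were higher and 6 lower in Smad3-/- (summed signals 34590 to 35110, against 61830 to 63520 in WT), and epididymis markers were higher in 6 of 6, as given below. The part of these in the 3 calls was not tested.

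The response to the high fat diet differed between the genotypes. In Smad3-/- arrays, 8 of 10 chains were higher on the high fat than on the regular diet (11.5% of all genes were, median 3.28 over the members and -0.00 over all genes). In WT arrays 0 were higher (4.69% of all genes) and 1, Myl2, was lower (6.11% of all genes), with a median of 0.05 against 0.02 over all genes. The interaction term, the diet difference in Smad3-/- minus that in WT, was called higher for the same 8 chains, against 12% of all genes, with a median of 3.23 over the members and -0.02 over all genes.

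For the slow heavy chain Myh7, the Smad3-/- arrays read 9.86 and 10.02 on the high fat diet and 5.03 and 4.89 on the regular diet, a 31.6-fold difference of signal (4.98 ± 0.14, adjusted p = 6.22e-21). In WT arrays Myh7 read 5.13 and 5.17 on the high fat and 5.29 and 5.04 on the regular diet (-0.02 ± 0.14, adjusted p = 0.977), and the interaction was 5.00 ± 0.20 (adjusted p = 2.04e-17). Myl2 was 28.0-fold higher (4.81 ± 0.15, adjusted p = 1.47e-19). The fast chains Myh1, Myh4, Mylpf, Myh2 and Myl1 were 16.3, 14.8, 11.7, 8.05 and 5.86-fold higher on high fat diet in Smad3-/- arrays, and Myl3 2.21-fold. Because Myh4 and Mylpf were already higher in Smad3-/- on the regular diet, their diet differences there (3.89 and 3.55) were smaller than their genotype differences on the high fat diet (6.36 and 4.40), whereas Myh7 had 4.98 and 4.79. The 2 comparisons share the Smad3-/- high fat arrays.

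Myh8 in Smad3-/- arrays read 4.16 and 4.09 on high fat and 3.84 and 3.64 on regular diet (0.38 ± 0.14, adjusted p = 0.0522), and Myh3 differed by -0.09 ± 0.15. The call of Myl2 in WT arrays rested on 4.94 and 5.25 on high fat against 5.61 and 5.51 on regular diet (-0.46 ± 0.15, adjusted p = 0.049), and most of the other settings lost it, with an adjusted p of up to 0.444 (without WT high fat array a). The remaining 9 chains lay between -0.21 and 0.25 in WT arrays, with adjusted p of 0.272 or more. The WT high fat arrays, set against WT regular diet, also had all 8 smooth muscle markers lower (summed signals 4012 to 4568 against 29670 to 31490) and Gapdh 3' minus 5' differences of 0.36 and 0.50 against 0.12 and 0.14. Epididymis markers were higher in 4 of 6 (11130 to 12300 on high fat, against 339.9 to 402.3 on regular diet) and lower in 0. Their part in the call of Myl2 was not tested.

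**Figure D2:**
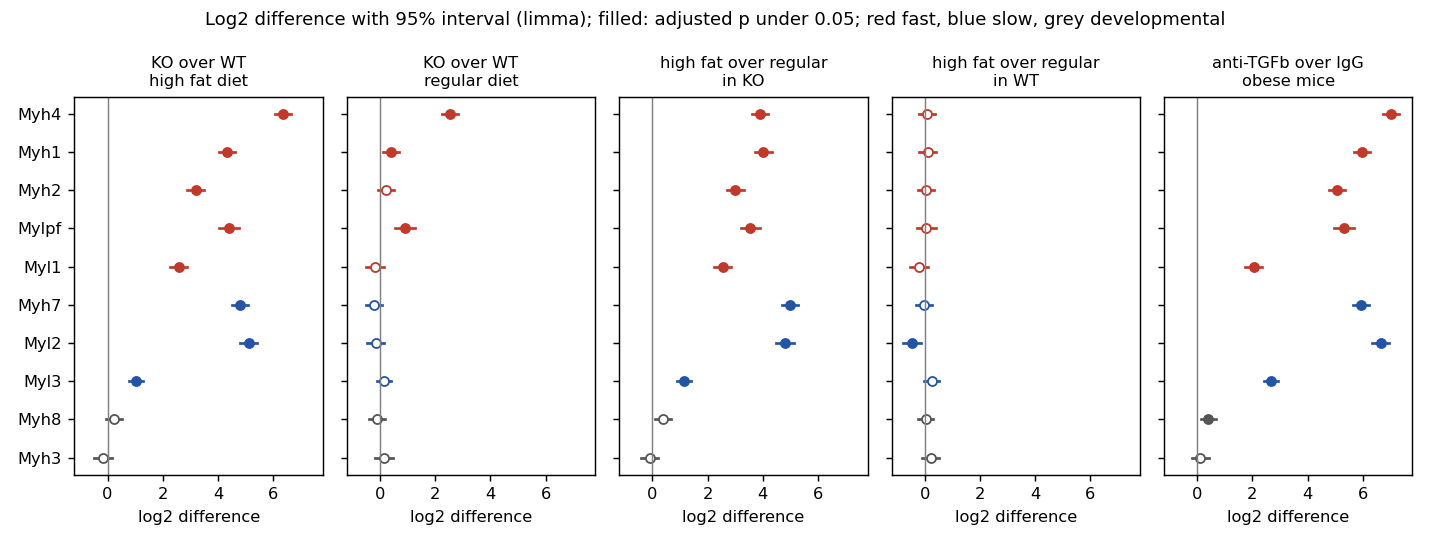
Log2 difference of each chain (horizontal axis) with its 95% interval from limma, for 5 comparisons; KO stands for arrays labelled Smad3-/-, filled points have an adjusted p under 0.05, and red, blue and grey mark fast, slow and developmental chains. Each chain is read by its brightest probe set. On regular diet Myh4 (2.55, and 0.05 by its other probe set, not drawn) stands apart from the slow chains (-0.21 to 0.13). Fast and slow chains are all higher in the comparisons with KO on high fat diet and with anti-TGFb.

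In obese mice given anti-TGF-beta, 9 of 10 chains were higher than with IgG (11.7% of all genes were called higher, median 5.19 over the members and -0.00 over all genes). Myh4 read 10.42 and 10.48 with anti-TGF-beta and 3.35 and 3.49 with IgG, 130.5-fold higher by signal (7.03 ± 0.14, adjusted p = 2.96e-24), and its other probe set differed by 2.67. Myl2 read 11.35 and 11.33 with anti-TGF-beta and 4.77 and 4.62 with IgG (100.2-fold, 6.65 ± 0.15, adjusted p = 7.1e-23). The groups were far apart for both, a fast and a slow chain. Myh1 read 10.22 and 10.07 against 4.26 and 4.09 with IgG (62.7-fold, 5.97 ± 0.15, adjusted p = 3.14e-22). Myh7 read 10.24 and 10.44 against 4.45 and 4.37 with IgG (61.1-fold, 5.93 ± 0.14, adjusted p = 8.84e-23). The groups of both did not overlap.

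Mylpf read 10.22 and 10.31 with anti-TGF-beta and 5.23 and 4.65 with IgG (log2 difference 5.32 ± 0.17). Myh2 read 9.83 and 10.00 against 4.75 and 4.95 with IgG, 33.5-fold higher (5.07 ± 0.14). The essential light chains, by their brightest probe sets, had smaller differences from higher values with IgG. Myl3 read 8.75 and 8.60 against 5.93 and 6.07 with IgG (6.38-fold, 2.67 ± 0.12), and Myl1 read 11.67 and 11.67 against 9.62 and 9.63 (4.13-fold, 2.04 ± 0.15). These 4 chains had limma adjusted p of at most 2.25e-11. Myh8 was called at 3.89 and 4.27 against 3.67 and 3.67 with IgG (0.41 ± 0.14, adjusted p = 0.026). Without anti-TGF-beta array b the difference was 0.22 (adjusted p = 0.377), and without IgG array a or b the call was lost too (0.0889 and 0.0931). Myh3 read 3.69 and 3.76 against 3.74 and 3.48 with IgG and was not called (0.12 ± 0.15, adjusted p = 0.65).

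Some genes had further probe sets, and these did not all follow the brightest one. The other probe set of Myh4 (1458368_at) read 4.51 and 4.57 in Smad3-/- and 4.59 and 4.58 in WT arrays on high fat diet (-0.04 ± 0.14, adjusted p = 0.946 in a fit of every probe set). With anti-TGF-beta it read 6.82 and 6.82, against 4.11 and 4.19 with IgG (2.67 ± 0.14, adjusted p = 3.83e-14). It therefore followed the brightest Myh4 probe set in the antibody experiment and not in the diet and genotype experiment. For Myh1, 1427868_x_at differed by 4.30 between Smad3-/- and WT on high fat diet and by 6.52 between anti-TGF-beta and IgG, close to the brightest. The remaining one, 1452465_at, was not called in either. It read 5.20 and 5.32 against 5.45 and 5.28 in WT, and 5.00 and 4.93 against 4.89 and 4.64 with IgG. On the regular diet, however, it differed by 0.42 between Smad3-/- and WT. The brightest Myh1 probe set and 1427868_x_at differed by 0.41 each there, and none was called in the fit of every probe set. For Myl3, 1428266_at and 1427768_s_at differed by 0.95 and 2.75 between Smad3-/- and WT on high fat diet, and by 3.31 and 4.79 between anti-TGF-beta and IgG. All 3 Myl3 probe sets were called higher in both comparisons. Of 2 probe sets that name Myh7 and Myh6 together, one differed by 4.23 and 5.26 in these comparisons and the other by 0.14 and 0.05. Suffixes x and s mark probe sets that can read related transcripts, so signal of similar chains may be mixed in them, and probe positions were not used here.

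**Figure D3:**
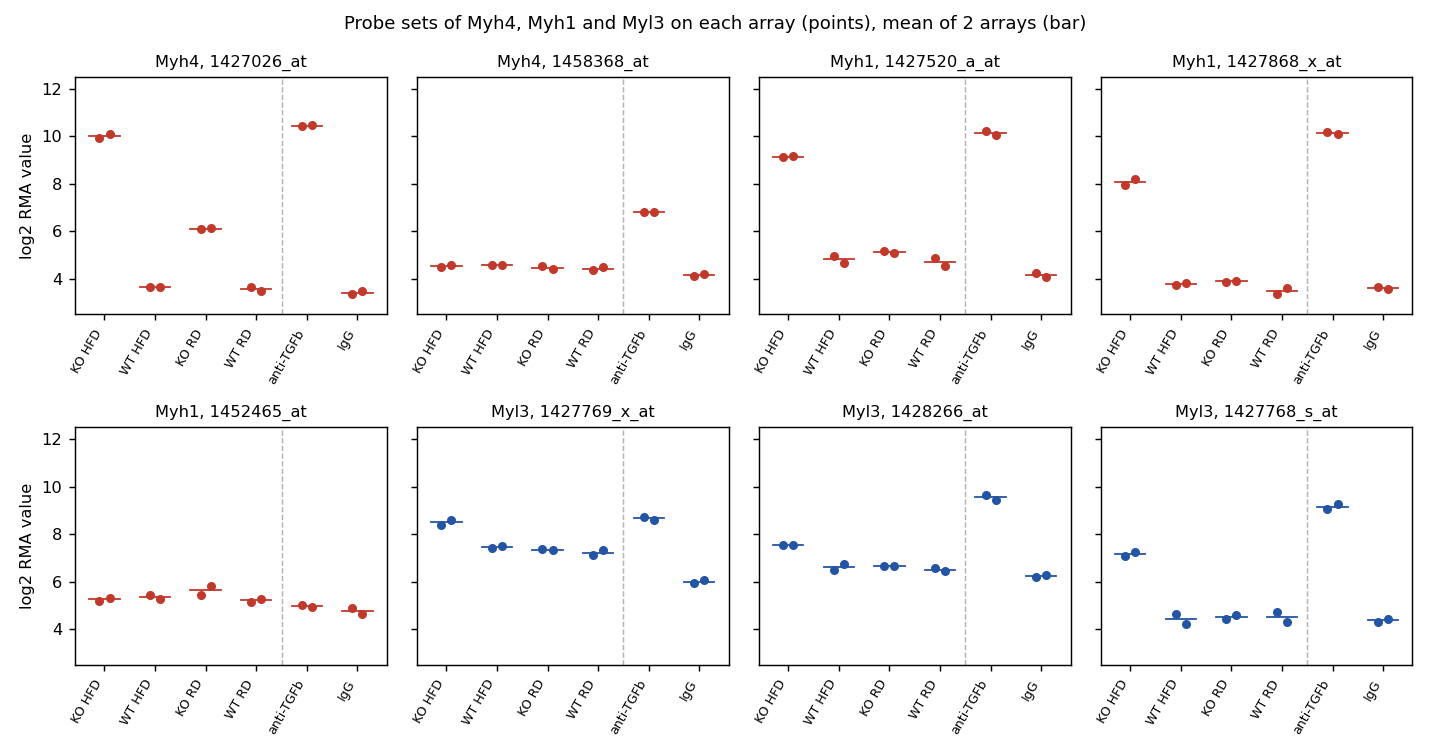
Log2 RMA value (vertical axes) on each array (points, with the mean of 2 arrays as a bar) of each probe set of Myh4, Myh1 and Myl3, for the 6 groups; KO stands for arrays labelled Smad3-/-. Myh4 1458368_at is above 4.6 only with anti-TGFb (6.82 on both arrays). Myh1 1452465_at stays between 4.64 and 5.81 and is highest in KO RD, while the other probe sets are high in KO HFD and anti-TGFb.

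To compare isoforms, each gene's log2 value was taken minus that of Myh7 on the same array, which tests whether a chain's signal differed between groups by another factor than that of the slow heavy chain. Each probe set has its own background and range, and on the WT and IgG arrays most chains were under 5.83, so such a value shows unequal differences of signal. It orders neither the isoforms nor their changes in RNA. On the regular diet 3 of the other 9 chains were called, near the share of 26.2% of all genes, so this count says little. They were Myh4, Mylpf and Myh1, whose differences exceeded that of Myh7 by 2.76, 1.12 and 0.61 log2 in Smad3-/- over WT. Their 95% intervals from each gene's own spread were 2.53 to 2.98, 0.69 to 1.54 and 0.26 to 0.97. Between the WT diets 0 were called (7.76% of all genes). In the comparisons where Myh7 itself differed strongly, nearly every gene differs from it and the share called means little: 100% for Smad3-/- over WT on high fat diet, 100% for diet in Smad3-/-, 100% for the interaction and 100% for the antibody, each after rounding, with 8 of the 9 chains called in each. Intervals below are therefore at 95% from each gene's own spread.

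On the high fat diet, Myh4 minus Myh7 was 0.06 and 0.08 on Smad3-/- arrays and -1.49 and -1.50 on WT arrays, so Myh4's difference exceeded Myh7's by 1.57 (interval 1.34 to 1.79). Myl2 differed from Myh7 by 0.32 (-0.04 to 0.68) and was the chain not called. Mylpf, at -0.39 (-0.82 to 0.04), lost its call with its own spread. Myh1 (-0.46), Myh2 (-1.60), Myl1 (-2.21) and Myl3 (-3.76) had smaller differences than Myh7. The value of Myh4 rests on its brightest probe set alone. That of Myl3 also uses its brightest, which differed by 1.03, against 0.95 and 2.75 for its other probe sets. With anti-TGF-beta over IgG the relative difference was 1.09 for Myh4 (interval 0.87 to 1.32) and -0.87 for Myh2 (-1.24 to -0.50), and Myh1 did not differ from Myh7 beyond its interval (0.04, -0.32 to 0.39). Myl2 exceeded Myh7 there by 0.71 (0.36 to 1.07).

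On the Smad3-/- arrays, Myh4 minus Myh7 was 0.06 and 0.08 on the high fat diet, and 1.08 and 1.24 on the regular diet. The diet difference of Myh4 lay below that of Myh7, at -1.09 relative to it (interval -1.31 to -0.87), and so did those of Mylpf (-1.43), Myh1 (-0.96) and Myh2 (-1.97). Myl2 again stayed near Myh7 (-0.17, -0.53 to 0.18). The WT arrays had Myh4 minus Myh7 values of -1.49 and -1.50 on high fat and -1.64 and -1.55 on regular diet. Myh7 on the regular diet and in WT, and Myh4 in WT, read under 5.83, so these values give no balance of fast and slow chains.

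**Figure D4:**
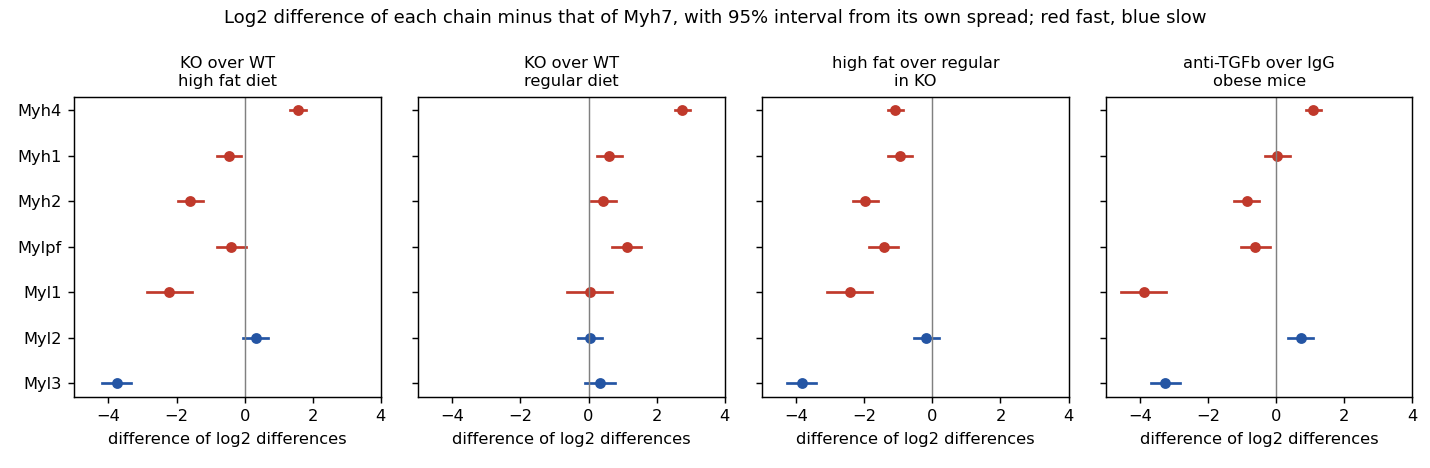
Log2 difference of each fast (red) and slow (blue) chain minus that of Myh7 (horizontal axis), with the 95% interval from the gene's own spread, in 4 comparisons; KO stands for arrays labelled Smad3-/-. Myh4 lies right of 0 for KO over WT on both diets (1.57 on high fat, 2.76 on regular diet) and for the antibody (1.09), and left of 0 for the diet in KO (-1.09).

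The partners of the myosin chains in fast and slow fibres were counted in lists, to be read against the shares of all genes called higher, given above, and lower. The lower shares were 6.05% for Smad3-/- over WT on high fat diet, 15.6% on regular diet, 5.82% for diet in Smad3-/-, 6.77% for the interaction and 12.6% for the antibody. Of 10 fast fibre partners (fast troponins, the fast calcium pump, parvalbumin and others), 9 were higher and 0 lower in Smad3-/- over WT on high fat diet, with a median log2 difference of 4.02. The troponin subunits Tnnc2, Tnnt3 and Tnni2 were higher by 6.57, 6.12 and 5.64, with SEs of 0.12 to 0.14. Of 10 slow fibre partners 6 were higher and 1 lower (median 2.18), among them Mb, the oxygen carrier myoglobin (4.10), and the slow troponins Tnnt1 (3.81) and Tnnc1 (2.93). Of 20 genes of the common sarcomere 17 were higher and 0 lower (median 2.17), including Ckm, the muscle creatine kinase (5.62), and the giant spring protein Ttn (4.14). With anti-TGF-beta over IgG these counts were 9 and 0 of 10 fast, 8 and 1 of 10 slow and 17 and 0 of 20 sarcomere genes. There Tnnc2 was higher by 6.53, Mb by 5.94 and Ttn by 6.84. For diet in Smad3-/- arrays they were 9 and 0, 6 and 2, and 19 and 0.

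On the regular diet the partners went both ways in Smad3-/- over WT. Of the fast partners 6 were higher and 2 lower (median 0.55), with Pvalb, the calcium buffer parvalbumin, higher by 1.43, Tnni2 by 1.01 and Tnnt3 by 0.89, and Tnnc2 lower (-2.52). Of the slow partners 2 were higher and 3 lower (median -0.06), with Mb higher by 0.72 and Mybpc1, a myosin binding protein, lower (-1.83). In the sarcomere list 4 were higher and 6 lower (median 0.06), and the lower ones included Tpm2 (-3.27), Acta1 (-2.44), Des (-2.21) and Tpm1 (-1.87). The smooth muscle markers were lower in the same comparison, and their part in these falls was not tested. Between the WT diets 0 fast and 0 slow partners were higher and 3 of each lower, with the fast partner Tnnc2 at -4.50. Of the 20 sarcomere genes 2 were higher and 6 lower there (range -4.17 to 3.40), with Ckm at -2.74. These compare with 4.69% of all genes called higher and 6.11% called lower.

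**Figure D5:**
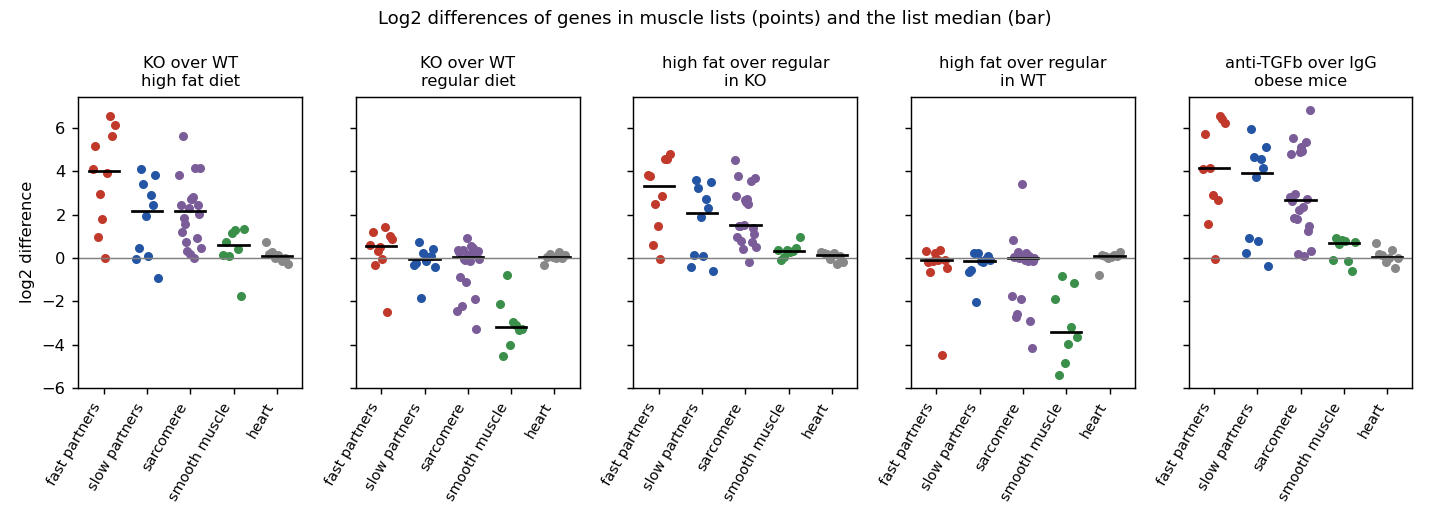
Log2 difference of each gene (points) in 5 lists, with the list median (bar), in 5 comparisons; KO stands for arrays labelled Smad3-/-. Fast partners, slow partners and sarcomere genes have medians above 2 for KO over WT on high fat diet (4.02, 2.18 and 2.17), and the smooth muscle list has a median of -3.19 for KO over WT on regular diet.

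Among regulators of muscle genes, 4 of 16 were higher and 0 lower in Smad3-/- over WT on high fat diet: Myf6, a myogenic factor of mature fibres (1.13), Vgll2, a cofactor of muscle transcription (0.99), Mef2c (0.59) and Ppargc1a, a coactivator of mitochondrial genes (0.48). The call of Ppargc1a was lost without WT array a (0.23, adjusted p = 0.564), Smad3-/- array a (0.214) or b (0.137), and that of Mef2c without Smad3-/- array b (0.41, adjusted p = 0.119). With anti-TGF-beta over IgG 9 were higher and 1 lower, among them Ppargc1a (1.67), Myf6 (1.65), Vgll2 (1.55) and Myod1, the myoblast determination factor (1.04). Of 12 genes of embryonic or denervated muscle, 3 and 4 were higher in these comparisons and 0 were lower. Sln, which encodes sarcolipin, a regulator of the muscle calcium pump, was higher by 1.47 and 2.30, Ankrd1 by 0.53 and 1.59, and the embryonic actin Actc1 by 0.75 and 0.68. On high fat diet the call of Ankrd1 was lost without WT array a or b or Smad3-/- array b (0.24 without this last, adjusted p = 0.64). Chrna1, an acetylcholine receptor subunit, was higher with anti-TGF-beta by 0.88. The developmental heavy chains Myh3 and Myh8 stayed low, as given above. Of 17 other myosin chains and myosin light chain kinases, 4 were higher and 1 lower on high fat diet. The higher ones were the smooth muscle chains Myl9 (1.28) and Myh11 (1.15) and the skeletal kinases Mylk4 (0.87) and Mylk2 (0.61). With the antibody 6 were higher, among them Mylk4 (2.10), Mylk2 (1.75), Myh11 (0.83) and Myl9 (0.80), and 1 was lower. The call of Mylk2 on high fat diet was lost without any 1 of the 4 arrays (adjusted p of 0.0657 to 0.118).

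Because Myh7, Myl2 and Myl3 also serve the heart, heart markers were read beside them. In Smad3-/- over WT on high fat diet 1 of 8 was higher and 0 lower, and the one was Actc1. Myh6, a heart heavy chain, averaged 4.47 in Smad3-/- and 4.29 in WT arrays, Nppa 5.18 and 5.17, and Tnni3, the heart troponin I, 5.15 in both. With anti-TGF-beta over IgG 1 was higher (Actc1) and 1 lower (Tnni3, -0.46), shares near those of all genes. The call of Tnni3 was lost without IgG array a (adjusted p = 0.081) or b (0.058) or anti-TGF-beta array b (-0.35, 0.187). Myh6 averaged 3.98 against 3.78 with IgG. The summed signal of the 8 markers was 550.8 to 562.4 in Smad3-/- against 488.4 to 492.9 in WT on high fat diet, and 284.9 to 291.0 with anti-TGF-beta against 253.8 to 263.4 with IgG. RMA values have no 0, and Myh6 averaged between 3.78 and 4.47 in all 6 groups, below the 40th percentile of mean signal.

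Brown fat markers moved with the chains in part of the comparisons. On high fat diet 7 of 8 were higher in Smad3-/- (summed signal 12570 to 13960, against 1026 to 1039 in WT), and with anti-TGF-beta 8 of 8 (23500 to 23910, against 1938 to 2035 with IgG). On the regular diet 7 of 8 were also higher in Smad3-/- (14520 to 16700, against 957.4 to 965.1 in WT), where Myh4 was higher by 2.55 and no slow chain was called. For diet in Smad3-/- arrays 0 brown fat markers were higher and 1, Ucp1, was lower (-0.61), while 8 myosin chains were higher. In that comparison 6 of 6 epididymis markers were lower (5087 to 5586 on high fat, against 56610 to 59790 on regular diet) and 6 of 7 adipocyte markers higher (57910 to 58540, against 34590 to 35110). For the interaction 6 of 6 epididymis markers were lower, and 6 of 7 adipocyte and 8 of 8 smooth muscle markers were higher. Smooth muscle markers were higher in 5 of 8 and lower in 1 both on high fat diet (5513 to 6183 in Smad3-/-, against 4012 to 4568 in WT) and with anti-TGF-beta (9246 to 9369, against 7893 to 8448 with IgG). Epididymis markers were lower in 4 of 6 in Smad3-/- on high fat diet (5087 to 5586, against 11130 to 12300 in WT) and higher in 6 of 6 on regular diet (56610 to 59790, against 339.9 to 402.3 in WT). With anti-TGF-beta 1 of the 6 was higher (186.7 to 187.0, against 164.3 to 165.4 with IgG). Of 7 adipocyte markers 1 was higher and 1 lower in Smad3-/- on high fat diet (57910 to 58540, against 55040 to 58410 in WT) and 3 were higher and 1 lower with anti-TGF-beta (63350 to 64910, against 58190 to 61230 with IgG). Gapdh 3' minus 5' differences were 0.39 and 0.37 in Smad3-/- against 0.36 and 0.50 in WT on high fat diet, and 0.08 and 0.14 with anti-TGF-beta against 0.02 and 0.10 with IgG. Those of the Actb control were 0.90 and 0.99 against 0.99 and 0.96 on high fat diet. With anti-TGF-beta they were 0.87 and 0.75, against 0.61 and 0.67 with IgG, and did not overlap. The part of these tissues and of RNA quality in the differences of the myosin chains was not tested.

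Across the 12 arrays, after each experiment's mean was taken off, the 8 adult chains ran together. Pearson's r between Myh4 and Myh7 was 0.950, between Myh7 and Myl2 0.996 and between Myh1 and Myh2 0.995. The lowest among the adult chains was 0.863, between Myl1 and Myl3. The Smad3-/- high fat and the anti-TGF-beta arrays stood high in each of these chains. Myh3 correlated with the other chains at -0.10 to 0.19. Myh8 correlated at 0.751 with Myh4 and 0.859 with Myh7, over a range of less than 1 log2 unit. The genes outside the 10 most like Myh4 were Eno3, the muscle enolase (0.991), Atp2a1, the fast calcium pump (0.989), Tnni2 (0.987), Tnnt3 (0.986) and Pfkm, the muscle phosphofructokinase (0.984). Those most like Myh7 were Tnnt1 (0.993), Tcap, a cap protein of titin (0.992), Trim63, a muscle ubiquitin ligase (0.988), Actn3 (0.987) and Tnnc1 (0.987). Those most like Myh8 were Igtp (0.951), Uqcc1 (0.934), Tmem69 (0.924), Miga2 (0.915) and Cox8a (0.905). These values describe 12 arrays in 6 groups of 2, which share their groups' differences.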

How the data were processed

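Total RNA of 12 mouse samples was read on 1 array each. The deposited values are log2 values made with RMA in Partek per the submitters' processing notes, with versions not given in the sources used here. RMA corrects background, equalizes array distributions and sums probes, which can compress differences near background. Samples were grouped by the labels, and 0 sample columns were left unused. The platform annotation gave the gene names: of 45101 probe sets, 34958 name 1 gene, 932 several and 9211 none. Each gene took its brightest probe set by the mean of all 12 arrays (9012 of 18194 genes had several). Gene IDs matched a table of GRCm38.p6 for 18032 genes, with 0 symbols changed and 162 unmatched.

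limma 3.58.1 in R 4.3.3 gave the two-sided tests (group means over 12 arrays, eBayes with trend). P-values were adjusted by Benjamini-Hochberg across all genes, with a threshold of 0.05, 6 residual and 20.37 prior degrees of freedom. Relative values subtracted Myh7's log2 value array by array. Every row of that fit shares Myh7's error, so its moderated p-values are too small, and intervals come from each gene's own spread, an alternative chosen after seeing the data. Code for the fit was tested on simulated data. The number of arrays limits the precision.

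Named genes were the 10 members, up to 4 genes a list and comparison with the smallest p, and the 5 genes most correlated with each of Myh4, Myh7 and Myh8. Members and lists were chosen with earlier results of these data known. Myh13, Myh15, Plin1, Crisp1 and Defb12, among others of the lists, were not analysed here. Alternatives were eBayes without trend or robust, no dim probe sets, mean of probe sets, every probe set, centring, quantile normalization, only the arrays of an experiment, the replicate letter as a block, and each array left out. In the fit of every probe set, a gene was still read by its brightest one.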

Additional observations from a re-analysis of the deposited data

Results flagged for a closer look

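The log2 diet difference was tested between genotypes with limma's interaction term (the difference in arrays labelled Smad3-/- minus that in WT), and 8 of the 10 chains passed. The fast heavy chains differed by 3.92 for Myh1, 3.81 for Myh4 and 2.96 for Myh2, and the fast light chains by 3.49 for Mylpf and 2.76 for Myl1. The slow chains differed by 5.27 for Myl2, 5.00 for Myh7 and 0.90 for Myl3. Each kept its direction and its call in every alternative run. Those runs read a gene by its brightest probe set or by the mean of its probe sets. Read alone, 1458368_at of Myh4 (-0.09) and 1452465_at of Myh1 (-0.53) were not called, while 1427868_x_at of Myh1 was (3.89). Groups of 2 arrays are too small for a test of single outlying arrays.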

How the results depend on the processing

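The calls of the 8 adult chains for Smad3-/- over WT on high fat diet, for diet in Smad3-/-, for the interaction and for the antibody, and those of Myh4 and Mylpf on regular diet, kept their direction and side of the threshold under every alternative. Each alternative read a gene by its brightest probe set or by the mean of its probe sets. Read by 1458368_at alone, Myh4 was not called on high fat diet (-0.04), regular diet (0.05), for diet in Smad3-/- (0.07) or the interaction (-0.09). Read by 1452465_at alone, Myh1 was not called on high fat diet (-0.10), for diet in Smad3-/- (-0.37), the interaction (-0.53) or the antibody (0.20). The call of Myl2, lower between the WT diets, was the weakest: the count of chains called lower was 1, and 0 without the intensity trend, with the mean of probe sets, with every probe set on its own, with the experiment's own arrays and with the replicate block (limma adjusted p = 0.0521). It ran from 0 to 2 with an array left out, 2 without WT high fat array b, which added Myl1 (-0.59). Myh1 on regular diet lost its call also with every probe set (adjusted p = 0.0613), centring (0.0865) and quantile normalization (0.123). Myh8 with the antibody lost its call with that experiment's own arrays (0.072), and for diet in Smad3-/- it gained one with centring (0.0316) and own arrays (0.0346). Without dim probe sets Myh3 and Myh8 were not tested. Relative to Myh7 on regular diet, quantile normalization called 5 chains and not 3, adding Myh2 (0.44) and Myl3 (0.43). Between the WT diets 1 was called (Myl1, -0.55), not 0, without WT high fat array b. Leaving out 1 array also ended relative calls on high fat diet (Myh1 without WT array a, -0.31, or Smad3-/- array b, -0.41, and Mylpf without WT array b, -0.30, or Smad3-/- array a, -0.42, or b, -0.37), on regular diet (Myh1 without Smad3-/- array b, 0.57) and with the antibody (Mylpf without IgG array a, -0.36). Ankrd1 on high fat diet also lost its call without the trend (0.0532), with every probe set (0.0816) and with centring (0.0545), and Ppargc1a with every probe set (0.0618). Calls relative to Myh7 were gained on high fat diet (Myl2 without WT array b, 0.45) and regular diet (Myl3 without WT array b, 0.56, Myh2 without Smad3-/- array a, 0.64). Myl4, an embryonic light chain, on regular diet was -0.43 and turned to 0.0055 with the mean of its probe sets. The cause of these changes was not tested.

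Over all genes on regular diet, quantile normalization called 2438 higher and 2572 lower, not 1528 and 2833. Without Smad3-/- high fat array b, 543 genes were higher for Smad3-/- over WT on high fat diet, not 863 (558 without WT array a), and 1274 for diet in Smad3-/-, not 2091. Fewer genes were lower there without WT array b (648) or Smad3-/- array a (649) than the 1100 otherwise, and between the WT diets without WT regular diet array a (720) or high fat array a (691) than 1112. The letters a and b pair no arrays by label. Their a minus b differences correlated between groups at -0.16 to 0.17, and the replicate block changed no other call of a member in the 6 comparisons, though relative to Myh7 it ended that of Mylpf on high fat diet (adjusted p = 0.0529). Signals near background limit Myh3, Myh8 and the control values of the adult chains.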
